A study of Homo sapiens with 6 samples.

Results

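The ECM-receptor genes described here are the extracellular matrix proteins and their cell-surface receptors that the KEGG annotation in the deposited table lists under ECM-receptor interaction. Of 73 rows with that annotation, 2 were left out because they are also listed under complement and coagulation cascades, which left 71 genes of the 29153 in the table. By symbol they comprised 14 collagens, 11 laminins, 18 integrins, 15 other matrix ligands and 13 other receptors. Of the 71, 56 are also listed under focal adhesion and 56 under PI3K-Akt signaling, so the list overlaps those pathways. RNA sequencing compared cells of HepG2, an established line from a human liver cancer, after infection with lentivirus carrying a control hairpin (sh-NC, genotype Control) or a hairpin against the long non-coding RNA LINC01977 (sh-LINC01977, genotype LINC01977 knockdown). Cells of both groups had carried the virus for 72 h, the methods describe puromycin selection of infected cells, and each group had 3 libraries. The knockdown samples are titled as a single hairpin, sh3, so the effect of its target and of the hairpin itself cannot be told apart. Nothing says whether the 3 libraries of a group came from separate cultures, and p-values therefore measure only the spread between these libraries.

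Collagens and laminins are built from 3 chains each, and laminins, collagen IV and the proteoglycans perlecan and agrin form the basement membrane on which epithelial cells rest. Integrins are pairs of an alpha and a beta subunit that bind fibronectin, collagens or laminins outside the cell and the actin cytoskeleton inside it. In liver, fibronectin is made by hepatocytes, whereas much of the fibrillar collagen of a scarred liver comes from stellate cells.

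The libraries held 49929024 to 60441515 counts in total. LINC01977 itself (ENSG00000262772, chr17:79823452-79827704, + strand, GRCh38) had 4, 0 and 16 counts in the sh-NC libraries and 0, 0 and 4 counts in the sh-LINC01977 libraries. These groups overlapped, and the log2 fold change of -2.12 ± 1.96 (SE) did not pass edgeR's test (adjusted p = 0.580), so the knockdown could not be checked at counts this low. The study reports a check of the knockdown by qRT-PCR in MHCC97H and HepG2 cells. Hepatocyte markers were abundant in both groups, with a summed level of 5136 to 5543 FPKM in sh-NC and 3718 to 3809 FPKM in sh-LINC01977. Of the 12, 8 were lower and 1 higher at adjusted p under 0.05, against 8.07% and 7.05% of all genes tested. Of the fibroblast and stellate cell markers, 6 of 10 had a row, with a summed level of 16.9 to 17.9 FPKM in sh-NC and 16.8 to 20.2 FPKM in sh-LINC01977. The collagen chain COL3A1 was at 0 in 5 of these 6 libraries. Of the 2 fibroblast and stellate cell markers with a mean of at least 0.5 FPKM, PDGFRB rose (log2 fold change 1.47 ± 0.21 SE, adjusted p = 0.00620). The other of the 2 had a negative log2 fold change and did not pass the test. Of the endothelial markers, 6 of 8 had a row, and their summed level went from 5.31 to 6.21 FPKM up to 13.1 to 14.6 FPKM through ESAM, with PECAM1 at most 0.282 FPKM in any library. Blood and macrophage markers summed to 626 to 633 FPKM in sh-NC and 543 to 558 FPKM in sh-LINC01977. Of these 8 markers, 5 had a mean under 0.5 FPKM, so 3 carried nearly all of the sum, and 1 of the 3 was lower at adjusted p under 0.05. The part of these shifts in the results was not tested. All 6 libraries are titled as HepG2, a single line. In bulk RNA a shift in some of the cells and a smaller shift in every cell cannot be told apart.

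The ECM-receptor genes were mostly higher after the LINC01977 hairpin than after the control hairpin. Of the 36 members with a mean of at least 0.5 FPKM (fragments scaled to gene length and library total) over the 6 libraries, 16 rose and 2 fell at adjusted p under 0.05 in edgeR's quasi-likelihood test. Among all 13452 genes tested, 7.05% were higher and 8.07% lower at that threshold. The median log2 fold change was 0.45 over the 36 members and -0.0010 over all genes tested, and 31 members had a positive and 5 a negative value. The 16 that rose were 7 integrins (ITGA1, ITGA3, ITGA5, ITGA10, ITGB1, ITGB4, ITGB5), 3 laminin chains (LAMA3, LAMB1, LAMC3), 2 collagen chains (COL6A1, COL9A2), 2 other ligands (FN1, RELN) and 2 other receptors (HMMR, SV2A). The 2 that fell were the secreted ligands SPP1 and THBS1. At a fold change of 2 or more with unadjusted p of at most 0.05, the thresholds in the study's methods, 5 members were higher (SV2A, ITGA10, ITGA3, ITGA5, LAMC3) and 0 lower, against 1.55% and 1.05% of all genes tested. DESeq2 also gave 0 members 2-fold lower, and in the filtered edgeR test 2 members, the ones that fell, were lower at unadjusted p under 0.05. Of the 36, 5 passed the filter with an sh-NC mean under 0.5 FPKM (LAMC3, LAMB3, ITGA5, ITGA3, ITGA10), and for these passing depended on the higher group. Among the other 31, whose mean reached 0.5 FPKM in both groups, 12 rose and 2 fell, 1 (SV2A) was 2-fold higher, and the median log2 fold change was 0.34. Of the 12911 genes that met the same condition, 6.73% were higher, 8.22% lower and 0.937% 2-fold higher.

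**Figure D1:**
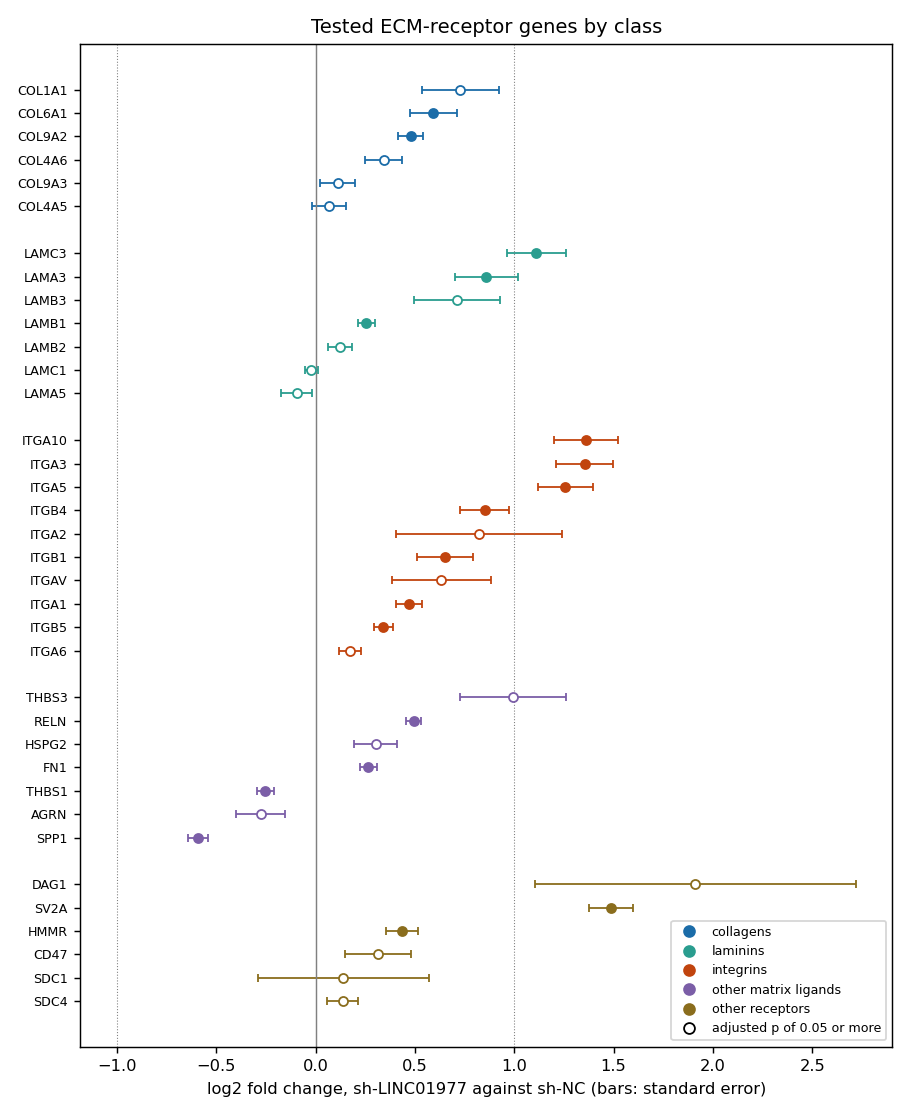
Log2 fold change of sh-LINC01977 against sh-NC (x axis) for the 36 tested ECM-receptor genes, grouped by class (colour), with bars of 1 standard error; filled points have an adjusted p under 0.05 in edgeR, and dotted lines mark a 2-fold change. All 10 integrins and all 6 collagens lie above 0, while SPP1 and THBS1 are the filled points below 0.

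In all, the libraries of the 2 groups did not overlap for 22 members higher and 3 lower in sh-LINC01977, against 18.8% and 18.3% of all genes tested. The 22 include the 5 members that passed the filter only through the sh-LINC01977 libraries. Among the 31 members with both group means at or above 0.5 FPKM, 17 were higher and 3 lower without overlap. The same condition gave 2355 higher and 2406 lower of 12911 genes. ECM-receptor genes took 1.48% to 1.51% of all counts in the sh-NC libraries and 1.79% to 1.88% in the sh-LINC01977 libraries. Fibronectin (FN1) alone made up 60.5% to 64.5% of those counts, and without it the share was 0.563% to 0.594% and 0.648% to 0.709%. In summed FPKM the members without FN1 overlapped between groups, at 947, 911 and 981 FPKM in sh-NC and 932, 935 and 994 FPKM in sh-LINC01977. Per length, the summed level of the integrins went from 110.3 ± 10.5 to 172 ± 16.5 FPKM (SD, n = 3 in each group), that of the laminins from 111 ± 0.851 to 124 ± 1.96 FPKM and that of the collagens from 30.5 ± 0.652 to 38.6 ± 2.61 FPKM. The other matrix ligands, which hold both FN1 and SPP1, summed to 1001 ± 24.6 and 1000.4 ± 23.9 FPKM.

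The promoters of the members past 2-fold and of the 2 that fell were read because these are the genes that changed most or in the other direction. RefSeq windows (GRCh38.p14) were found for 56 of the 71 members, and the 250 bases before the start are printed, 5′ to 3′ on the gene's strand, for the 4 of these 7 genes with a window within 500 bases of the gene start in the table. Capitals mark matches, on either strand, to the letters GGGCGG of the GC box, to the pentamer of the CCAAT box, and to the letters TATAAA of the box of that type. They also mark TGANTCA, bound by AP-1 factors, TGGGAA, the core bound by RBPJ of the Notch pathway, and the letters CATTCC, bound by TEAD factors, and neighbouring matches can run together. ITGA10, which encodes a collagen-binding alpha subunit (ENSG00000143127, gene at chr1:145891208-145910189, - strand), has the window chr1:145910051-145910300. ITGA5, the fibronectin-binding alpha subunit (ENSG00000161638, gene at chr12:54395261-54419460, - strand), has the window chr12:54419267-54419516. SPP1, or osteopontin (ENSG00000118785, gene at chr4:87975650-87983426, + strand), has the window chr4:87975464-87975713. THBS1, or thrombospondin 1 (ENSG00000137801, gene at chr15:39581079-39599466, + strand), has the window chr15:39580829-39581078.
ITGA10: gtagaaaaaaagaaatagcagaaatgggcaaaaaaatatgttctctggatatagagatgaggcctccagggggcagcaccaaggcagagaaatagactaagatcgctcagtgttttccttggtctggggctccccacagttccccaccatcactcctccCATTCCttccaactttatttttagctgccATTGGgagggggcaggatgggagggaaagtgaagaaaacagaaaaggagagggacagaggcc
ITGA5: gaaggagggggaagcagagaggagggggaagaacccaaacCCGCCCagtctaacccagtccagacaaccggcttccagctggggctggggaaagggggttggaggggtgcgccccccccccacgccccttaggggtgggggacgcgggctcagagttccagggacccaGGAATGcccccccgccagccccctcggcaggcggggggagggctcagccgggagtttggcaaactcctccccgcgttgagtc
SPP1: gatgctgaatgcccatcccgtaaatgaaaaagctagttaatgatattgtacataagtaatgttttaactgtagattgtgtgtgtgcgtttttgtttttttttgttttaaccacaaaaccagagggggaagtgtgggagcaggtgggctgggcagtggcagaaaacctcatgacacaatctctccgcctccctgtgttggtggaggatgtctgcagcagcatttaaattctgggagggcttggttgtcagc
THBS1: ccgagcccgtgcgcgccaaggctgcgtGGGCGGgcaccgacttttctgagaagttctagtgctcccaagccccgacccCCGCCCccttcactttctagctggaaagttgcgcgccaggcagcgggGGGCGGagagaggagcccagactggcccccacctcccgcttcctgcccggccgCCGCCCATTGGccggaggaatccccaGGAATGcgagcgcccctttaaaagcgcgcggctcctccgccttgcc
The windows differ in composition, with 48.4% G and C in ITGA10, 44.8% in SPP1, 70.0% in ITGA5 and 69.6% in THBS1. The SPP1 window holds no match to these letters. Over the members, 57.1% of the 56 windows held a GC box, against 42.6% of all 35116 windows, 25% against 32.0% a CCAAT box and 8.93% against 10.7% a TATA box. The AP-1 motif was in 1.79% against 6.57%, the RBPJ core in 8.93% against 20.8% and the TEAD motif in 16.1% against 11.9%. The median content of G and C was 64.2% in the members' windows and 58.0% in all windows. For a member only the first listed window was counted, whereas all windows include every window of a gene. These shares and medians are therefore not counted alike. A match is a run of letters and no measure of binding.

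Of 18 integrin genes, 10 passed the filter and 7 of these rose, among them the common partner ITGB1 and alpha subunits for collagens, laminins and fibronectin. All 10 log2 fold changes were positive, with a median of 0.74, and 3 of the 7 (ITGA3, ITGA5, ITGA10) passed the filter only through the sh-LINC01977 libraries. The share higher at adjusted p under 0.05 was 7.05% of all genes tested. It was 6.73% of genes with both group means at or above 0.5 FPKM. Below, CPM are counts scaled to library size with edgeR's TMM factors, and values are given in the order of replicates 1 to 3. ITGB1, the beta-1 subunit shared by most of the alpha subunits here and the most abundant integrin transcript, was at 451, 440.1 and 308 CPM in sh-NC and 598, 636 and 650.4 CPM in sh-LINC01977. It was higher in every sh-LINC01977 library (log2 fold change 0.65 ± 0.14 SE, adjusted p = 0.0263), but the call was lost when any sh-LINC01977 library was left out (adjusted p = 0.0584 to 0.0778), with a log2 fold change of 0.63 to 0.69. The collagen-binding subunit ITGA10 was at 3.34, 3.99 and 3.52 CPM in sh-NC and 10.8, 7.82 and 9.24 CPM in sh-LINC01977. Every sh-LINC01977 library lay above every sh-NC library (log2 fold change 1.36 ± 0.16, adjusted p = 0.00335). ITGA1, which also forms a collagen receptor with ITGB1, had 25.6, 26.7 and 25.02 CPM in sh-NC and 36.2, 33.9 and 36.8 CPM in sh-LINC01977 and rose without overlap (log2 fold change 0.47 ± 0.066, adjusted p = 0.00625). The gene PELO lies within ITGA1 on the same strand with 165% of its counts, and its own log2 fold change was 0.12 (adjusted p = 0.307).

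The other alpha subunits that rose bind laminins or fibronectin. ITGA3, a laminin-binding subunit (ENSG00000005884, chr17:50055968-50090481, + strand), had 4.98, 6.73 and 5.88 CPM in sh-NC and 14.2, 16.6 and 14.2 CPM in sh-LINC01977. Its groups did not overlap (log2 fold change 1.35 ± 0.14, adjusted p = 0.00233). ITGA5, which with ITGB1 forms the classical fibronectin receptor and whose promoter is printed above, had 2.72, 3.08 and 3.09 CPM in sh-NC and 7.47, 6.38 and 7.42 CPM in sh-LINC01977. Here too the groups were apart (log2 fold change 1.26 ± 0.14, adjusted p = 0.00257). Both started from a low level, with means of 0.468 and 0.303 FPKM in sh-NC. ITGA6, the other laminin-binding subunit that passed the filter, was more abundant and had 94.2, 103 and 103 CPM in sh-NC and 109, 113 and 115 CPM in sh-LINC01977. Its groups did not overlap, but the difference did not pass the test (log2 fold change 0.17 ± 0.055, adjusted p = 0.0855). ITGB4, which pairs only with ITGA6 in the hemidesmosome, had 8.69, 7.72 and 6.83 CPM in sh-NC and 15.1, 13.1 and 13.7 CPM in sh-LINC01977 and rose (log2 fold change 0.85 ± 0.12, adjusted p = 0.00688). GALK1 overlaps ITGB4 on the other strand with 204% of its counts, and the strand setting of the counting is not stated. GALK1 had a log2 fold change of -0.35 (adjusted p = 0.0897).

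ITGAV and ITGA2, abundant alpha subunits, split within groups and did not pass the test, whereas the beta subunit ITGB5 did. ITGB5, which with ITGAV binds vitronectin, had 153, 158 and 163 CPM in sh-NC and 207, 194 and 198 CPM in sh-LINC01977 and rose without overlap (log2 fold change 0.34 ± 0.048, adjusted p = 0.00602). ITGAV had 149, 146 and 165 CPM in sh-NC and 284, 144 and 284 CPM in sh-LINC01977. Replicates 1 and 3 of sh-LINC01977 lay well above all sh-NC libraries and replicate 2 lay below them (log2 fold change 0.63 ± 0.25, adjusted p = 0.143). Without replicate 2 of sh-LINC01977 the log2 fold change was 0.89 and the adjusted p 0.00533. With any other library left out the log2 fold change was 0.48 to 0.69 and the adjusted p 0.212 to 0.314. ITGA2, a further collagen-binding subunit, had 119, 53.7 and 50.6 CPM in sh-NC and 102, 95.9 and 197 CPM in sh-LINC01977. The groups overlapped through replicate 1 of sh-NC, and replicate 3 of sh-LINC01977 stood above the rest (log2 fold change 0.82 ± 0.42, adjusted p = 0.237). Without the former the log2 fold change was 1.33 (adjusted p = 0.0700), and without the latter 0.41 (adjusted p = 0.546).

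**Figure D2:**
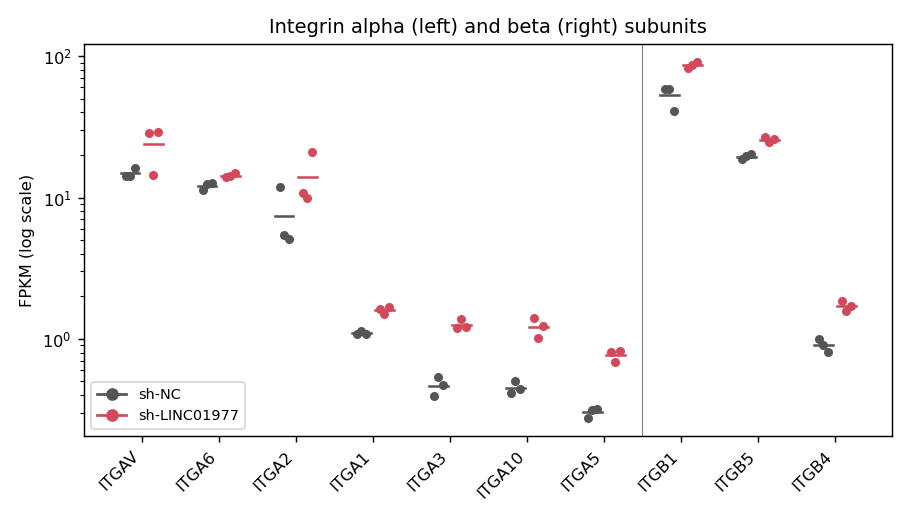
FPKM (log axis) in each library for the 10 tested integrin genes, alpha subunits left and beta subunits right of the line, with sh-NC in grey, sh-LINC01977 in red and bars at the group means. ITGB1 is the highest, from 52.8 FPKM on average in sh-NC to 86.7 FPKM in sh-LINC01977, while ITGA3, ITGA10 and ITGA5 start below 0.5 FPKM, and ITGAV shows a single red point among the grey ones.

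In order of FPKM in sh-NC, ITGB1 came first with 52.8 ± 10.2 FPKM (SD, n = 3), followed by ITGB5 with 19.4 ± 0.795 FPKM and ITGAV with 14.8 ± 1.07 FPKM. ITGA6 had 12.1 ± 0.720 FPKM and ITGA2 7.45 ± 3.78 FPKM, and ITGA6 and ITGA2 overlapped. The remaining tested subunits were near or below 1 FPKM. In sh-LINC01977 the means were 86.7 ± 4.33 FPKM for ITGB1, 25.7 ± 1.05 FPKM for ITGB5 and 24.1 ± 8.42 FPKM for ITGAV, of which the last 2 overlapped. Of the partners of these subunits, ITGB6 and ITGB8, which pair with ITGAV, had at most 16 and 36 counts in a library. ITGA11, the remaining collagen-binding partner of ITGB1, had 4 counts in 1 library of each group and 0 elsewhere. ITGB3, a partner of ITGAV and of ITGA2B, had 24, 16 and 23 counts in sh-NC and 12, 17 and 8 in sh-LINC01977, which overlapped in counts and did not overlap in CPM.

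Of 11 laminin genes, 7 passed the filter and 3 of these rose, the abundant beta-1 chain and the rarer alpha-3 and gamma-3 chains. The median log2 fold change of the 7 was 0.25, and 2 of them (LAMC3 and LAMB3) passed the filter only through the sh-LINC01977 libraries. Among all genes tested, 7.05% were higher. The beta-1 chain LAMB1 had 385, 365 and 356 CPM in sh-NC and 433, 448 and 439 CPM in sh-LINC01977 and rose (log2 fold change 0.25 ± 0.043, adjusted p = 0.0112). DLD overlaps LAMB1 on the other strand with 21.9% of its counts. The gamma-1 chain LAMC1, found in most laminins and the most abundant laminin transcript here, had 517, 515 and 522 CPM in sh-NC and 505, 514 and 511 CPM in sh-LINC01977. The sh-LINC01977 libraries lay just below the sh-NC libraries in CPM and just above them in FPKM. Its log2 fold change of -0.022 ± 0.032 had an adjusted p of 0.685, and its sign turned with the scaling, to 0.043 on library totals. LAMC3, the gamma-3 chain (ENSG00000050555, chr9:131009082-131094473, + strand), had 3.03, 2.84 and 3.43 CPM in sh-NC and 7.23, 6.85 and 6.02 CPM in sh-LINC01977. The groups did not overlap (log2 fold change 1.11 ± 0.15, adjusted p = 0.00482), yet the sh-LINC01977 mean was only 0.731 FPKM against 50.4 FPKM for LAMC1.

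The alpha-3 chain LAMA3, a laminin chain of epithelial anchoring, had 9.92, 12.4 and 15.02 CPM in sh-NC and 23.3, 20.7 and 23.7 CPM in sh-LINC01977. It rose without overlap (log2 fold change 0.86 ± 0.16, adjusted p = 0.0151), though without replicate 2 of sh-NC, replicate 1 or replicate 3 of sh-LINC01977 the adjusted p was 0.0518, 0.0506 and 0.0522, with log2 fold changes of 0.86, 0.83 and 0.82. The beta-3 chain LAMB3 had 1.98, 2.84 and 1.87 CPM in sh-NC and 3.23, 4.03 and 3.69 CPM in sh-LINC01977, which did not overlap but missed the threshold (log2 fold change 0.71 ± 0.22, adjusted p = 0.0744). Without replicate 2 of sh-NC the LAMB3 value reached 0.92 (adjusted p = 0.0421). With any other library left out it was 0.60 to 0.79 (adjusted p = 0.112 to 0.187). The alpha-5 chain LAMA5, the main alpha chain by FPKM, had a log2 fold change of -0.096 ± 0.077 (adjusted p = 0.444), and the beta-2 chain LAMB2 one of 0.12 ± 0.061 (adjusted p = 0.223). LAMA1, LAMA2 and LAMB4 had at most 16, 29 and 12 counts in any library.

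The tested collagen chains all had positive log2 fold changes, of which 2 passed the test. Of 14 collagen genes, 6 passed the filter, with a median log2 fold change of 0.41. The share of all genes tested that rose was 7.05%. COL9A2, a chain of the fibril-associated collagen IX of cartilage, had 27.8, 29.7 and 31.00 CPM in sh-NC and 41.4, 40.6 and 41.2 CPM in sh-LINC01977 and rose without overlap (log2 fold change 0.48 ± 0.064, adjusted p = 0.00511). COL9A3, its partner and the most abundant collagen transcript by FPKM, had 100.2, 96.04 and 106 CPM in sh-NC and 113, 95.3 and 117 CPM in sh-LINC01977. It overlapped between groups (log2 fold change 0.11 ± 0.087, adjusted p = 0.444), and TCFL5 overlaps it on the other strand with 32.0% of its counts. The third chain, COL9A1, had 4 counts in 1 library and 0 in the others. COL6A1, a chain of the beaded filaments of collagen VI, had 6.996, 7.13 and 7.02 CPM in sh-NC and 12.01, 10.3 and 9.54 CPM in sh-LINC01977 and rose (log2 fold change 0.59 ± 0.12, adjusted p = 0.0197). The COL6A1 call was lost when any library but replicate 3 of sh-LINC01977 was left out (adjusted p = 0.0551 to 0.0625), with a log2 fold change of 0.50 to 0.61 in those fits. COL1A1, the alpha-1 chain of fibrillar collagen I, had 32.9, 41.7 and 26.7 CPM in sh-NC and 67.01, 54.4 and 46.5 CPM in sh-LINC01977. Its groups did not overlap and it lay at the threshold (log2 fold change 0.73 ± 0.19, adjusted p = 0.0504), and without replicate 2 of sh-NC the value reached 0.91 (adjusted p = 0.0364). With any other library left out the value was 0.58 to 0.85 (adjusted p = 0.0546 to 0.133).

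The 6 collagen IV genes lie in 3 head-to-head pairs, each with a shared start region, and only the X-linked pair was above the filter. COL4A5 and COL4A6, whose starts are 347 bases apart on chromosome X, had 40.03, 32.8 and 37.1 CPM in sh-NC and 37.6, 40.2 and 37.4 CPM in sh-LINC01977 and 11.97, 13.2 and 12.2 CPM in sh-NC and 15.2, 15.2 and 17.1 CPM in sh-LINC01977, in that order. COL4A5 overlapped between groups (log2 fold change 0.067 ± 0.086, adjusted p = 0.644). COL4A6 did not overlap and missed the threshold (log2 fold change 0.34 ± 0.093, adjusted p = 0.0545). The difference between the changes of these 2 chains was not tested. COL4A1 and COL4A2, the chains of the common basement membrane collagen, start 1337 bases apart on chromosome 13 and overlap in the table. COL4A2 had 90, 103 and 79 counts in sh-NC and 81, 90 and 95 in sh-LINC01977, while COL4A1 had 0 in every sh-NC library and 6, 4 and 0 in sh-LINC01977. COL4A3 and COL4A4, 452 bases apart on chromosome 2, had at most 4 and 12 counts. Low counts carry little weight here, because a count of 4 occurred in 8101 pairs of a gene and a library, against 2780 for a count of 3 and 1758 for a count of 5.

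**Figure D3:**
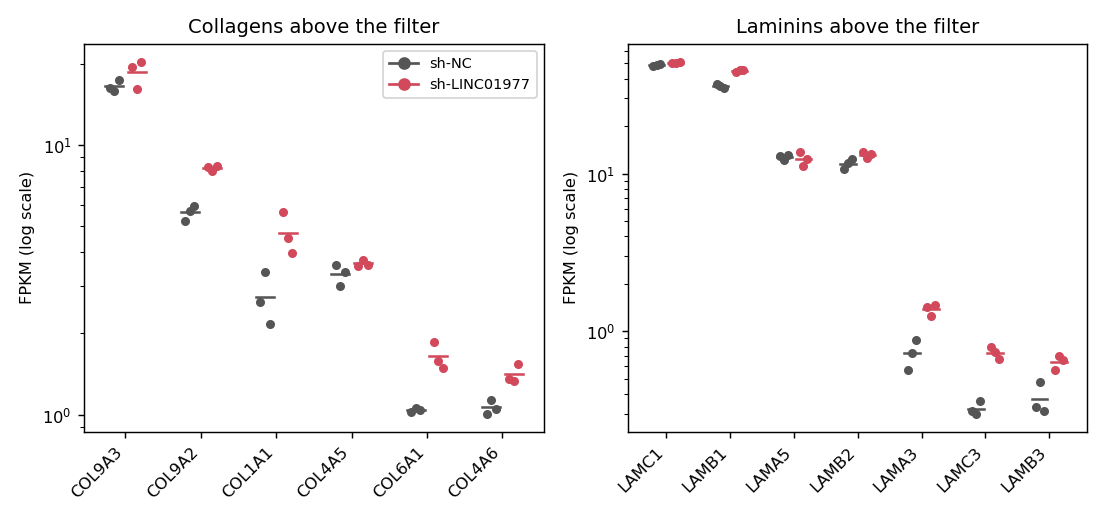
FPKM (log axis) in each library for the 6 collagens (left) and 7 laminins (right) above the filter, in order of mean FPKM, with sh-NC in grey, sh-LINC01977 in red and bars at the group means. The groups separate for COL9A2, COL6A1, COL1A1 and COL4A6 among the collagens, of which COL9A2 and COL6A1 were called, and for every laminin shown but LAMA5, although LAMC1, between 48.2 and 51.2 FPKM, and LAMB2 separate only narrowly.

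The other matrix ligands moved in both directions, and the 2 most abundant of them went opposite ways. Of 15, 7 passed the filter, 2 rose and 2 fell, and their median log2 fold change was 0.26. The shares of all genes tested were 7.05% higher and 8.07% lower. Fibronectin (FN1), the member with the most counts and a ligand of ITGA5 with ITGB1, had 9324, 9749.6 and 9371 CPM in sh-NC and 11954, 11319 and 10874 CPM in sh-LINC01977. It was higher in every sh-LINC01977 library by a small amount (log2 fold change 0.26 ± 0.043, adjusted p = 0.0101). Reelin (RELN), a large secreted glycoprotein best known for positioning neurons, had 996, 948 and 1011 CPM in sh-NC and 1417, 1378 and 1366 CPM in sh-LINC01977. Its replicates lay close together and the groups were apart (log2 fold change 0.49 ± 0.038, adjusted p = 0.00106). Osteopontin (SPP1), a secreted ligand of ITGAV integrins and CD44, had 1315, 1225 and 1376 CPM in sh-NC and 846, 864 and 883 CPM in sh-LINC01977. It fell in every sh-LINC01977 library (log2 fold change -0.59 ± 0.05, adjusted p = 0.00130). Thrombospondin 1 (THBS1), a matrix protein that binds CD47 and CD36, had 359, 370.4 and 359.8 CPM in sh-NC and 303, 296 and 316 CPM in sh-LINC01977 and fell without overlap (log2 fold change -0.25 ± 0.041, adjusted p = 0.00984). With limma on log2(FPKM + 0.1) the THBS1 change was -0.19 (adjusted p = 0.0549).

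The basement membrane proteoglycans among the ligands did not pass the test. Perlecan (HSPG2) had 175, 157 and 149 CPM in sh-NC and 230.0, 179 and 184 CPM in sh-LINC01977 (log2 fold change 0.30 ± 0.11, adjusted p = 0.119), and agrin (AGRN) had 266, 201 and 249 CPM in sh-NC and 224, 179.7 and 188 CPM in sh-LINC01977 (log2 fold change -0.28 ± 0.12, adjusted p = 0.188). Perlecan did not overlap between groups, and agrin did. Thrombospondin 3 (THBS3) had 4.32, 2.27 and 2.99 CPM in sh-NC and 7.70, 5.64 and 5.75 CPM in sh-LINC01977, with a log2 fold change of 0.99 ± 0.27 and an adjusted p of 0.0512. Without replicate 1 of sh-NC it reached 1.27 (adjusted p = 0.0314). With another library left out it went as low as 0.80, and the adjusted p as high as 0.141. MTX1, which overlaps THBS3 on the other strand, had 906% of its counts.

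Among the receptors that are not integrins, SV2A had the largest called rise of all members. SV2A (ENSG00000159164, chr1:149903318-149917882, - strand), a membrane glycoprotein of synaptic vesicles that KEGG lists in the pathway, had 8.32, 6.77 and 6.76 CPM in sh-NC and 20.5, 20.5 and 20.1 CPM in sh-LINC01977. The 3 sh-LINC01977 libraries were within a narrow range and far above the sh-NC libraries (log2 fold change 1.48 ± 0.11, adjusted p = 0.000995). HMMR, a hyaluronan receptor that also works at the mitotic spindle, had 42.3, 47.2 and 43.7 CPM in sh-NC and 56.6, 65.4 and 57.7 CPM in sh-LINC01977 and rose (log2 fold change 0.43 ± 0.079, adjusted p = 0.0145), with an adjusted p of 0.0514 without replicate 1 of sh-NC. The heparan sulfate proteoglycan syndecan 4 (SDC4), the receptor of highest FPKM in this class, had 272, 267 and 231 CPM in sh-NC and 292, 292 and 263 CPM in sh-LINC01977. Its groups overlapped (log2 fold change 0.14 ± 0.077, adjusted p = 0.287). CD47, a receptor for thrombospondin, had 6.72, 5.47 and 7.41 CPM in sh-NC and 9.32, 6.97 and 8.10 CPM in sh-LINC01977 and also overlapped (log2 fold change 0.31 ± 0.17, adjusted p = 0.258).

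Syndecan 1 and dystroglycan had single libraries far from their replicates. Syndecan 1 (SDC1) had 119, 108 and 255 CPM in sh-NC and 123, 274 and 134 CPM in sh-LINC01977, so that replicate 3 of sh-NC and replicate 2 of sh-LINC01977 stood above the rest. Its log2 fold change of 0.14 ± 0.43 (adjusted p = 0.864) turned negative without any of 3 libraries, replicates 1 and 2 of sh-NC and replicate 2 of sh-LINC01977 (-0.039, -0.079 and -0.33). Dystroglycan (DAG1), a laminin and agrin receptor, had 35.6, 30.8 and 45.4 CPM in sh-NC and 48.1, 42.3 and 331 CPM in sh-LINC01977, which overlapped. Replicate 3 of sh-LINC01977 was 7.82 times the lowest replicate of its group, and without it the log2 fold change went from 1.91 ± 0.81 (adjusted p = 0.167) to 0.28 (adjusted p = 0.367). No library stood apart in all of SDC1, DAG1, ITGAV and ITGA2.

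**Figure D4:**
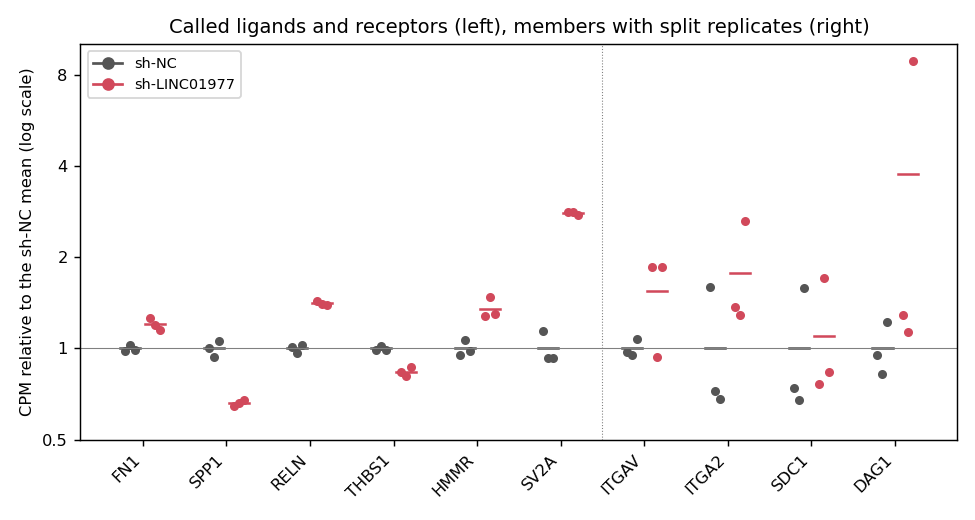
CPM of each library divided by the sh-NC mean of the gene (log axis), for 6 called ligands and receptors (left of the dotted line) and 4 members whose replicates split (right), with sh-NC in grey, sh-LINC01977 in red and bars at the group means. On the left the 3 libraries of each group stay together, with SPP1 and THBS1 below 1, and on the right ITGAV has 1 low red point, ITGA2 and SDC1 each have 1 high grey and 1 high red point, and DAG1 has 1 red point above 8.

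The remaining 35 members were below the filter, with at most 247 counts in any library, and 24 of them stayed under 40 counts in every library. Without overlap between groups, 8 of the 35 were higher and 1 lower in CPM, against 6.84% and 3.78% of all genes that failed it. When all 29153 genes were fitted together, 17 of the 71 members were higher and 2 lower at adjusted p under 0.05, against 2.44% and 2.92% of all genes, and the member added was ITGA2B. ITGA2B, the alpha subunit of the platelet fibrinogen receptor, had 62, 55 and 61 counts in sh-NC and 143, 125 and 112 in sh-LINC01977 (log2 fold change 1.04 ± 0.21, adjusted p = 0.0336). At least 2-fold higher without overlap, but not past the test, were COL6A2, COL6A3, COMP, TNXB, THBS4 and ITGA9. COL6A2 and COL6A3, the partner chains of COL6A1, had 12, 8 and 4 counts in sh-NC and 66, 37 and 19 in sh-LINC01977, and 21, 4 and 4 counts in sh-NC and 37, 66 and 46 in sh-LINC01977, in that order (adjusted p = 0.103 and 0.121). COMP, a cartilage matrix protein of the thrombospondin family, had 11, 17 and 4 counts in sh-NC and 57, 37 and 62 in sh-LINC01977 (adjusted p = 0.0869). TNXB had 130, 101 and 63 counts in sh-NC and 247, 191 and 190 in sh-LINC01977 (adjusted p = 0.126), and ATF6B, which overlaps it on the same strand, had 1750% of its counts with a log2 fold change of 0.42 (adjusted p = 0.0227). THBS4 and ITGA9 had at most 38 and 21 counts in a library.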

How the data were processed

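RNA was measured in 6 HepG2 libraries, 3 sh-NC and 3 sh-LINC01977, grouped and numbered by their labels. RNA was isolated with TRIzol and run on a HiSeq platform. The authors deposited whole-number counts for each gene and library, used here as raw counts, and FPKM, scaled to gene length and library total. Counts of 4, 8, 12 and 16 occurred more often than the counts next to them. Whether the deposited counts are plain fragment counts is therefore not clear. The submitters' processing notes name bcl2fastq 2.0, HISAT2, StringTie, DESeq2, limma and build hg38; which tool made the counts, and whether it used strand, is not given in the sources used here. Of the 71 members, 62 have the same coordinates in GENCODE, and every row names a gene.

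The main test was edgeR's two-sided quasi-likelihood test (edgeR 4.0.16, R 4.3.3) with TMM factors and Benjamini-Hochberg adjusted p-values, on the 13452 genes with a mean of at least 0.5 FPKM over the 6 libraries. Values of rarer genes come from the same test run on all 29153 genes. Depth was 49929024 to 60441515 counts a library, and counts of 3 or fewer were treated as the floor. Alternatives were DESeq2 1.42.0, limma 3.58.1 on log2(FPKM + 0.1) and log2(FPKM + 1), RLE factors, library totals, no filter, a filter of 1 FPKM, counts divided by 4, a replicate block and leaving out each library, and, chosen after seeing the data, TMM without mitochondrial genes and a count among genes whose mean reached 0.5 FPKM in both groups. Named with values are the members past either threshold, the 3 of highest FPKM in each class, and the chain partners of named integrins, laminins and collagen IV, with members below the filter named where 2-fold different without overlap. The members, the classes, the related lists and the tests were chosen with earlier results of these data known. Values of 1 member below the filter are not reported here.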

Additional observations from a re-analysis of the deposited data

How the results depend on the processing

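Of the 18 members called, 13 kept their call in every alternative that tested them: COL9A2, LAMB1, LAMC3, ITGB5, ITGA1, ITGB4, ITGA3, ITGA10, ITGA5, FN1, SPP1, RELN and SV2A. The number of members higher at adjusted p under 0.05 was 16, and 13 to 16 when a library was left out, 20 on library totals and 21 with DESeq2. The share of all genes called in these alternatives is not given here, so 20 and 21 cannot be set against a background. The number lower was 2, and 1 with limma on log2(FPKM + 0.1) and on log2(FPKM + 1), where THBS1 was lost. The number 2-fold higher was 5, and 12 of 71 without a filter, where 732 of all 29153 genes were 2-fold higher. It was 1 with a filter of 1 FPKM, which removes 4 of the 5, and 1 with limma on log2(FPKM + 1). It was also 1 among members whose mean reached 0.5 FPKM in both groups, and 5 to 7 when a library was left out. The direction turned for 3 members, none of them called. COL4A5 went to -0.0057 without replicate 2 of sh-NC and lay between that value and 0.14 when other libraries were left out. LAMC1 went to 0.043 on library totals, 0.042 with limma on log2(FPKM + 0.1) and 0.041 on log2(FPKM + 1). SDC1 went to -0.039 and -0.079 without replicates 1 and 2 of sh-NC and to -0.33 without replicate 2 of sh-LINC01977, with 0.64 as the highest value, without replicate 3 of sh-NC. The cause was not tested. Over the single members and alternatives, 522 values kept their direction and side of the threshold, 24 passed it only in the alternative, 16 lost it and 7 turned.

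Over all genes tested, the correlations of same-numbered libraries' deviations from their group means were -0.029, 0.017 and 0.055. Differently numbered libraries gave -0.07 to 0.053. No pairing by replicate number showed in these values, which cannot exclude one that affects part of the genes. With the replicate number as a block, 17 members were higher, 2 lower and 6 2-fold higher. COL6A1 and ITGB1 were lost and COL1A1, HSPG2 and THBS3 gained under the block. Depth limits the 35 members below the filter, of which 24 never reached 40 counts.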

Other observations

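Of all genes tested, 7.05% were higher and 8.07% lower at adjusted p under 0.05, and the counts in the related lists stand beside those shares. These lists were chosen with earlier results of these data known, so the counts only describe the genes listed. Among matrix proteases and their inhibitors, 15 of 24 passed the filter, 5 rose and 1 fell, and with both group means at or above 0.5 FPKM 4 of 13 rose and 1 fell. TIMP1, a secreted inhibitor of matrix metalloproteinases, had 16.98, 16.7 and 14.9 FPKM in sh-NC and 46.8, 43.02 and 42.9 FPKM in sh-LINC01977 and rose without overlap (edgeR log2 fold change 1.39 ± 0.079 SE, adjusted p = 0.000466). TIMP4, a relative at low level, had 0.407, 0.147 and 0.248 FPKM in sh-NC and 0.687, 1.14 and 1.01 FPKM in sh-LINC01977 (log2 fold change 1.72 ± 0.40, adjusted p = 0.0323) and passed the filter through the sh-LINC01977 libraries alone, whereas TIMP3, which binds to the matrix, had 19.3, 19.3 and 19.01 FPKM in sh-NC and 13.4, 12.6 and 15.02 FPKM in sh-LINC01977 and fell (log2 fold change -0.55 ± 0.065, adjusted p = 0.00318). The membrane-bound metalloproteinase MMP14 had 4.58, 4.76 and 4.64 FPKM in sh-NC and 6.77, 8.07 and 7.43 FPKM in sh-LINC01977 and rose (log2 fold change 0.61 ± 0.083, adjusted p = 0.00536). The inhibitors moved in both directions.

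Among 16 tested basement membrane and elastic fibre genes outside the pathway, 7 rose and 3 fell, and with both group means at or above 0.5 FPKM 4 of 13 rose and 3 fell. The small proteoglycan biglycan (BGN) had 0.118, 0.162 and 0.122 FPKM in sh-NC and 2.75, 2.37 and 1.94 FPKM in sh-LINC01977, the largest called change in the related lists (log2 fold change 4.02 ± 0.23, adjusted p = 0.000466), and it passed the filter through the sh-LINC01977 libraries alone. The matrix proteins SPARC and TGFBI fell, SPARC with 14.2, 14.3 and 16.6 FPKM in sh-NC and 8.52, 9.19 and 9.11 FPKM in sh-LINC01977 (log2 fold change -0.82 ± 0.076, adjusted p = 0.00160) and TGFBI with 43.2, 46.2 and 39.3 FPKM in sh-NC and 27.5, 24.7 and 24.5 FPKM in sh-LINC01977 (log2 fold change -0.81 ± 0.077, adjusted p = 0.00167). Among 24 tested genes of collagen synthesis and cross-linking, 3 rose and 1 fell, numbers near the shares over all genes. The collagen glycosyltransferase COLGALT2 had 4.87, 4.31 and 4.98 FPKM in sh-NC and 10.02, 10.4 and 10.8 FPKM in sh-LINC01977 (log2 fold change 1.08 ± 0.073, adjusted p = 0.000692), and the collagen chaperone SERPINH1 had 8.82, 11.2 and 9.77 FPKM in sh-NC and 18.8, 15.1 and 14.5 FPKM in sh-LINC01977 (log2 fold change 0.64 ± 0.13, adjusted p = 0.0185). Of 11 tested matrix receptors outside the pathway, 4 rose, among them syndecan 3 (SDC3, log2 fold change 0.89, adjusted p = 0.0188) and the glypican GPC1 (log2 fold change 0.54, adjusted p = 0.0177). Of 22 tested genes of integrin activation and linkage, such as talins and kindlins, 2 fell, a share near that over all genes, and 20 did not pass the test. FERMT1, a kindlin, had 5.36, 5.07 and 13.9 FPKM in sh-NC and 19.2, 18.2 and 17.2 FPKM in sh-LINC01977, at least 2-fold higher but not past the adjusted test (log2 fold change 1.10 ± 0.38, adjusted p = 0.105). The 2 that fell were TNS3 (log2 fold change -0.29 ± 0.053, adjusted p = 0.0149) and the integrin-linked kinase ILK (log2 fold change -0.19 ± 0.046, adjusted p = 0.0381).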
